A study of Bos taurus with 96 samples.

Results

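The genes described here are the collagen chain genes of cattle, defined by a gene symbol made of COL, a number, A and a number. Of 44 such symbols in the bovine RefSeq annotation, 26 had at least 1 of the 34227 tested array probes, and these 26 genes were all kept, out of 10682 named genes in the series. They were read by 68 tested probes, and 16 of them had more than 1 probe. Each gene was represented by the probe that was above background on most arrays, and other probes of the gene are given where they disagreed. The other 18 symbols (COL4A4, COL6A5, COL7A1, COL8A2, COL9A1, COL9A2, COL9A3, COL12A1, COL14A1, COL16A1, COL17A1, COL19A1, COL20A1, COL21A1, COL23A1, COL24A1, COL25A1 and COL27A1) were not analysed here. By class, the 26 genes comprised 9 fibrillar chains, 5 basement membrane chains of type IV, 4 beaded filament chains of type VI, 2 short-chain network chains, 2 multiplexins, a fibril-associated (FACIT) chain, a transmembrane chain, and COL26A1 and COL28A1.

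Collagens are the main structural proteins of the extracellular matrix, and are built from alpha chains that wind together into a helix. Fibrillar chains pack into the fibres that give connective tissue its strength, type VI forms fine beaded filaments between fibres and cells, and type IV forms the sheet of the basement membrane that surrounds adipocytes, myofibres, vessels and nerves. In adipose tissue fibroblasts and fat cell precursors are known as main producers of fibrillar collagen, whereas each mature adipocyte lies in a basement membrane, and collagen in muscle is a known component of meat toughness.

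Total RNA was hybridised to a 1-colour bovine array, 1 sample per array, for 96 samples of Angus, Hereford and Wagyu x Angus (WagyuAngus) steers. Subcutaneous fat of the rump (SC), fat around the kidney (Kid), omental fat (Omen), fat between muscles (Inter) and intramuscular fat (IMF) were each sampled 12 times, 4 per breed, all from pasture-raised steers aged 26 months. Longissimus dorsi muscle (LD) gave 24 samples from steers raised on pasture, 8 per breed, and 12 from steers given supplementary feed, 4 per breed, and the labels give 259 feedlot days for every sample. IMF was dissected out of the longissimus muscle, samples of different depots came in part from the same steers without a link in the labels, and an earlier slaughter of part of the LD animals is not marked in the labels. The p-values therefore measure the spread between these samples.

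A level is here the log2 of the processed probe signal minus the 75th percentile of the same array, so that a gene at 0 lies at that percentile, and a difference of 1 is a doubling on the log2 scale. Levels of different genes come from different probes and are not compared. A gene was called different at an adjusted p under 0.05 (limma, Benjamini-Hochberg over all 34227 probes). The share of probes above background on an array had a median of 75.03% in LD to 83.8% in Omen, arrays of a group correlated at 0.927 to 0.992 over all probes, and 3 values of the 26 genes were missing on 2 arrays and left out. The adipocyte markers were present in every fat depot, and the log2 of the summed level of 6 adipocyte genes was 7.38 to 9.95 on fat arrays and 2.20 to 6.57 on LD arrays. Myofibre RNA was present in IMF, where the summed level of 12 myofibre genes was 10.1 to 11.7, against 1.64 to 9.81 on arrays of the 4 other depots and 11.96 to 12.75 on LD arrays.

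All 26 collagen chain genes differed among the 5 depots, as did 87.2% of all probes, and without IMF 21 did. SC had the highest mean level for 14 of them, IMF for 10, Kid for COL5A3 and Omen for COL15A1. The lowest mean was most often in Kid (12 genes), followed by IMF and SC (5 genes each), Inter (3 genes) and Omen (1 gene). In these whole-tissue samples fewer cells of a type and less RNA per cell cannot be told apart.

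The 4 comparisons with SC share the 12 SC arrays. In IMF 23 of the 26 genes were called, 8 higher and 15 lower than in SC (all probes: 64.2% called, 31.2% higher and 33% lower). Inter had 19 called, 4 higher and 15 lower (48.8%, 21.6% and 27.2% of probes). Kid had 17, with 2 higher and 15 lower (41.7%, 19.4% and 22.2%), and Omen 19, with 6 higher and 13 lower (45.7%, 20.5% and 25.2%). The median difference over the 26 genes was lowest in IMF at -0.84, followed by Kid at -0.67, Inter at -0.46 and Omen at -0.34, whereas the median over all probes lay between -0.05 and 0.00. The genes lower than in SC were mainly the interstitial chains of types I, III, V and VI, and those higher were COL15A1, some type IV chains and low-signal chains. Scan day and depot overlapped heavily, since all IMF arrays were scanned on a day that held 1 SC array and all Inter arrays on a day without SC. Counts with a block or within single days, here and below, have no share of all probes beside them. They therefore do not set collagen chain genes apart from other genes. With scan day as a block 8 genes passed in IMF, 15 in Kid and none in Omen, for which the block also rests on that SC array (limma, and 15 in Omen passed with the day fitted over all 96 arrays).

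**Figure D1:**
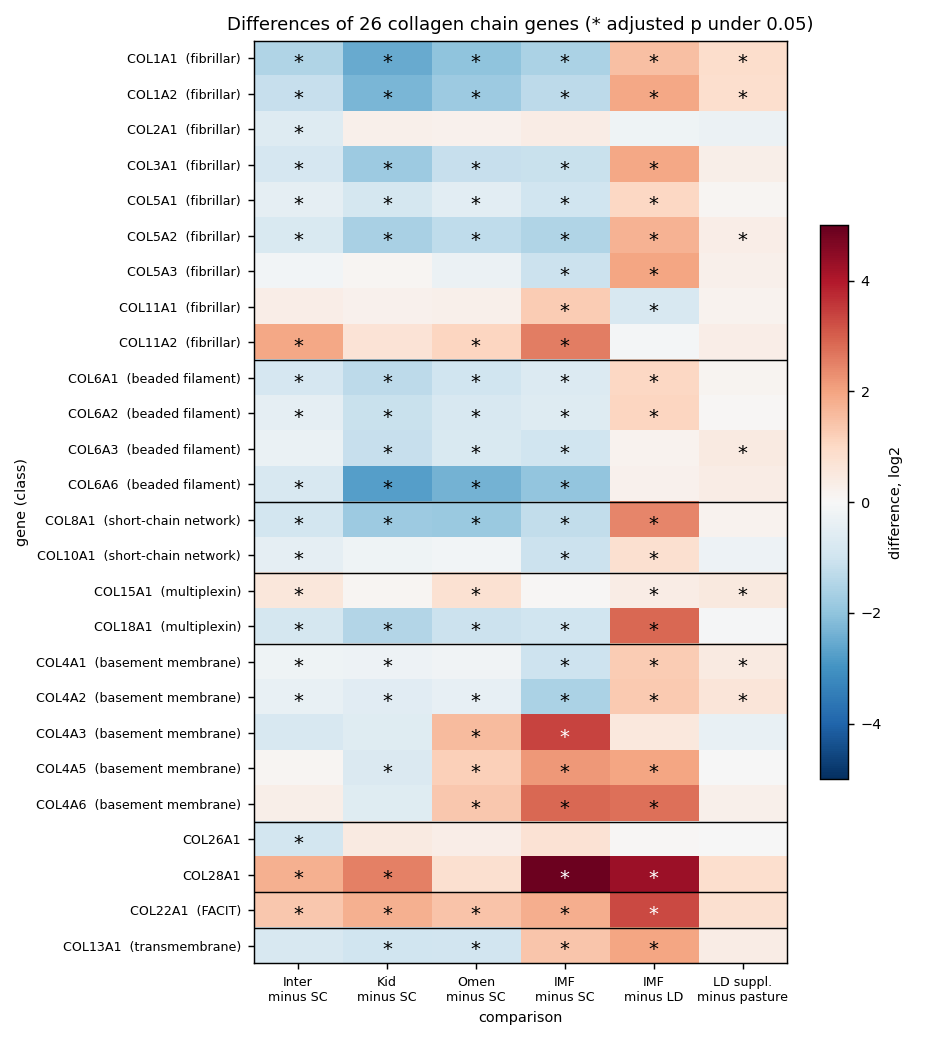
Differences in log2 level of the 26 collagen chain genes (rows, by class) in 6 comparisons (columns), coloured from blue (lower in the group named on top) to red (higher), with an asterisk where the adjusted p was under 0.05. Types I, III and VI are blue in the 4 comparisons with SC, and COL28A1 in IMF is the darkest red at 4.91.

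Type I collagen, the bulk of fibrous connective tissue, was lower in every depot than in SC. The level of COL1A1, the main type I chain, ran from 5.49 to 6.93 in SC (median 6.27), from 3.15 to 5.97 in Inter (4.71), from 3.24 to 5.43 in IMF (4.90), from 2.42 to 5.46 in Omen (4.41) and from 2.83 to 5.57 in Kid (3.44). Omen and IMF did not overlap SC on any array, and Kid and Inter overlapped SC at their top. COL1A1 was 5.77-fold lower in Kid than in SC (difference -2.53, SE 0.25, adjusted p = 4.06e-08) and 4.06-fold lower in Omen (-2.02, SE 0.29, adjusted p = 5.83e-06). The IMF level was 3-fold lower (-1.58, SE 0.21, adjusted p = 6.54e-07) and the Inter level 2.81-fold lower (-1.49, SE 0.27, adjusted p = 9.74e-05). Inter, IMF, Omen and Kid, in this order, each differed from the next by less than their SD. In Kid against SC arrays scanned on the same day the difference was -2.28 (adjusted p = 0.000104), whereas in IMF a scan day term over all tissues left -0.63 (adjusted p = 0.165).

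COL1A2, the partner chain of the type I trimer, had medians of 6.81 in SC, 5.85 in Inter, 5.69 in IMF, 5.24 in Omen and 4.49 in Kid. It followed COL1A1 in order and size, from -1.17 in Inter (SE 0.26, adjusted p = 0.000806) to -2.30 in Kid (SE 0.25, adjusted p = 2.01e-07). Across the 60 fat arrays both chains correlated at r = 0.976, and at 0.967 after subtraction of the mean of each depot and breed. In IMF the difference was -1.31 (SE 0.23, adjusted p = 2.33e-05), with -0.59 (adjusted p = 0.171) with scan day over all tissues.

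COL3A1, the chain of the fine reticular fibres that accompany type I, ran from 7.05 to 7.79 in SC (median 7.29), from 6.04 to 7.14 in Inter (6.43), from 5.30 to 6.88 in IMF (6.29), from 4.995 to 6.81 in Omen (6.28) and from 4.71 to 6.79 in Kid (5.35). IMF, Omen and Kid arrays all lay below the lowest SC array. The difference from SC was -1.80 for Kid (SE 0.20, adjusted p = 1.83e-07), -1.14 for Omen (SE 0.15, adjusted p = 2.06e-06), -1.11 for IMF (SE 0.17, adjusted p = 3.17e-06) and -0.83 for Inter (SE 0.12, adjusted p = 3.54e-06). COL5A2, a type V chain that is built into type I fibrils and lies beside COL3A1 in the genome, was 3.04-fold lower in Kid and 2.85-fold lower in IMF than in SC, also without overlap (-1.60, adjusted p = 2.59e-08, and -1.51, adjusted p = 1.05e-08). Of all collagen chain genes 6 in IMF, 5 in Kid, 4 in Omen and 1 in Inter were lower without overlap with SC, against 8.26%, 1.76%, 2.4% and 2.03% of all probes. Higher without overlap was 1 gene in IMF, COL11A2, and none in Inter, Kid and Omen, against 6.66%, 1.71%, 1.76% and 1.57% of all probes.

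Summed levels of 6 fibroblast markers lay between 7.002 and 7.85 in SC and between 5.82 and 7.44 in Kid, and 3 of the 6 genes were lower in Kid (median difference -0.60). In IMF 4 of the 6 were lower than in SC and 2 higher. Decorin alone made up 73.9% to 82.9% of that sum in the 5 depots. Across the 12 IMF arrays COL3A1 rose with this sum at r = 0.899 and COL1A1 at r = 0.826, both read on the same arrays, and without the 2 arrays farthest from the median at 0.891 and 0.792. The part of fibroblast number in the fibril chains was not tested.

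**Figure D2:**
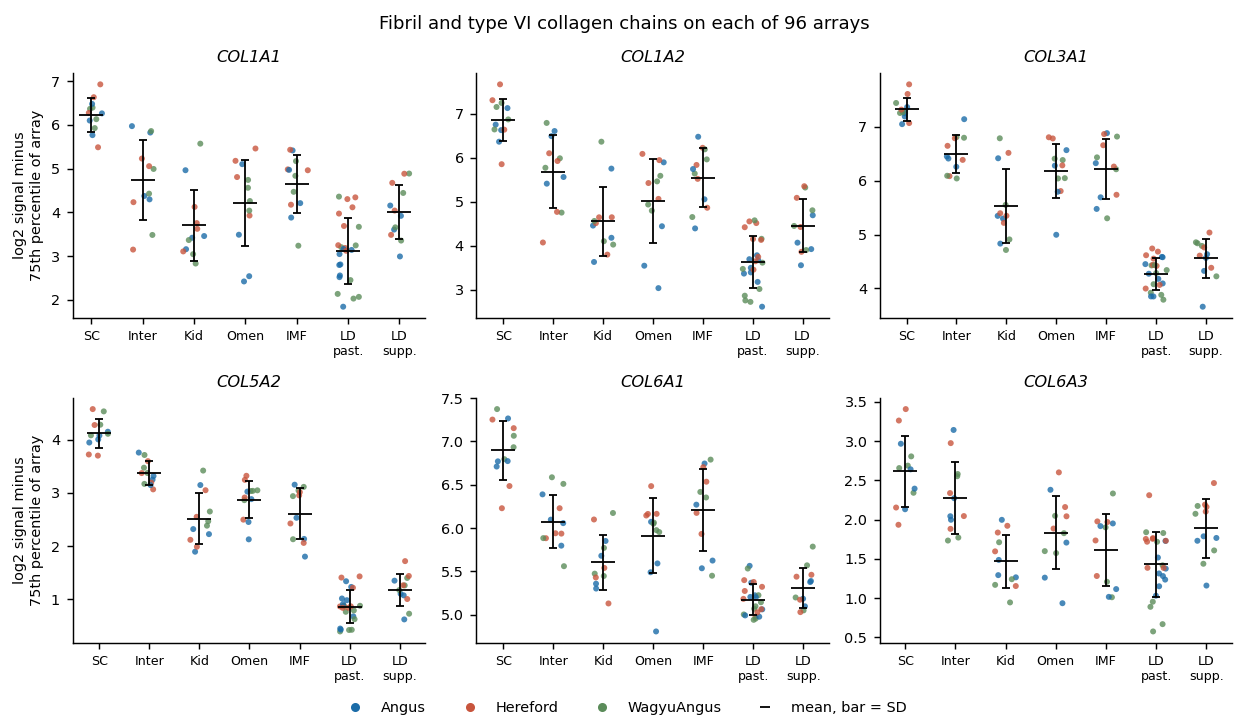
Levels (log2 signal minus the 75th percentile of the array, vertical axis) of COL1A1, COL1A2, COL3A1, COL5A2, COL6A1 and COL6A3 on each array, by tissue (horizontal axis) and breed (colour), with the mean and SD of each tissue. SC is the highest group in all 6 panels, and COL1A1 runs from 5.49 to 6.93 there and from 2.83 to 5.57 in Kid.

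The other fibrillar chains did not share 1 pattern. COL5A1 was lower than in SC in all 4 depots, by -0.98 in IMF to -0.47 in Inter, with adjusted p of 6.59e-06 and 0.00572. COL5A3, a type V chain known from adipose tissue and muscle, ran from 1.58 to 2.86 in SC and from -0.17 to 1.98 in IMF. The IMF difference was -1.08 (SE 0.20, adjusted p = 5.25e-05), and the gene was within 0.28 of SC in the other depots with no call. It correlated weakly with COL1A1 over the 60 fat arrays (r = -0.112). All 6 adipocyte markers were lower in IMF than in SC too (median -1.05), with summed levels of 7.38 to 9.33 against 9.32 to 9.95, and over the 12 IMF arrays COL5A3 correlated with that sum at 0.951 (0.922 without the 2 arrays farthest from its median). Their part was not tested.

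COL11A1, COL11A2 and COL2A1, chains of cartilage fibrils, had low signals. COL11A1 was 2.40-fold higher in IMF than in SC (1.26, SE 0.19, adjusted p = 3.82e-06). COL11A2 was not above background on any SC array and was above it on all 12 IMF arrays, where it was at least 1.88-fold higher (fitted means in IMF and SC -5.16 and -7.70, adjusted p = 2.01e-06). This bound sets SC at the lowest signal that counted as above background on its arrays, a mean of -6.07. In Inter COL11A2 was above background on 8 of 12 arrays and ran from -7.66 to -1.57 (median -6.52, mean -5.79, adjusted p = 0.0149), and no fold is given because without the highest array the mean was -6.17, below that limit. With normexp background correction, which shrinks low signals, the COL11A2 difference was -0.05 in IMF and -0.23 in Inter. COL2A1 ran from -5.72 to -3.34 in SC and from -5.79 to -4.38 in Inter, a difference of -0.63 (SE 0.23, adjusted p = 0.0264), and its probe did not pass in the other depots. The 2 other COL2A1 probes disagreed with it and with each other. In IMF the probe above background on 51 of 96 arrays gave 5.28 (adjusted p = 3.5e-07), and the one above background on 94 gave -0.66 (adjusted p = 0.00127). The latter was lower in Inter (-0.98, adjusted p = 0.000199), Omen (-1.17, adjusted p = 1.67e-06) and Kid (-1.55, adjusted p = 2.37e-06) as well, while the former gave 1.39 in Inter (adjusted p = 0.118). No direction is therefore given for COL2A1. The summed level of 4 cartilage markers lay between -4.64 and -3.41 in SC and -2.99 and -1.15 in IMF, and 3 of the 4 were higher in IMF. SOX9 alone made up 69.8% of that sum in IMF. COL11A2 was at a like level in LD on pasture (mean -5.04), from which IMF differed by -0.11 with no call. The part of cartilage markers and of muscle tissue in these differences was not tested.

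Type VI collagen, whose COL6A3 chain also releases the adipose signalling fragment endotrophin, was highest in SC for all 4 chains measured. COL6A1 ran from 6.23 to 7.37 in SC (median 6.87), from 5.56 to 6.59 in Inter (5.999), from 5.45 to 6.79 in IMF (6.31), from 4.81 to 6.49 in Omen (6.06) and from 5.13 to 6.18 in Kid (5.51). Kid lay wholly below SC and the other depots overlapped it. The differences from SC were -1.30 in Kid (SE 0.13, adjusted p = 6.73e-08), -0.99 in Omen (SE 0.15, adjusted p = 1.68e-05), -0.83 for Inter (SE 0.13, adjusted p = 1.5e-05) and -0.69 in IMF (SE 0.16, adjusted p = 0.000759). COL6A2, its genomic neighbour, differed by -1.12 in Kid (adjusted p = 5.08e-07) and -0.64 in IMF (adjusted p = 0.000273). Both correlated at r = 0.849 over the 60 fat arrays and at 0.789 within groups.

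COL6A3 ran from 1.93 to 3.41 in SC (median 2.65), 1.73 to 3.14 in Inter (2.16), 0.93 to 2.60 in Omen (1.86), 1.01 to 2.33 in IMF (1.82) and 0.94 to 1.997 in Kid (1.39), so that every depot overlapped SC. Its differences were -1.15 in Kid (SE 0.16, adjusted p = 4.15e-06), -0.998 in IMF (SE 0.18, adjusted p = 3.55e-05), -0.78 in Omen (SE 0.18, adjusted p = 0.00107) and -0.34 in Inter (SE 0.18, adjusted p = 0.123). COL6A6 was low in signal and spread widely, from -4.55 to -1.84 in SC and from -8.17 to -2.76 in Kid. In 3 depots it nevertheless gave the largest drop of the 4 chains, 6.69-fold lower in Kid (-2.74, SE 0.49, adjusted p = 9.26e-05), 5.19-fold in Omen (-2.38, SE 0.40, adjusted p = 4.32e-05) and 3.94-fold in IMF (-1.98, SE 0.34, adjusted p = 1.88e-05), and in Inter it differed by -0.80, against -0.83 for COL6A1. It was above background on 10 of 12 Kid and 9 of 12 Omen arrays.

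COL8A1, a network chain of vessel walls and other matrices, ran from 2.72 to 4.36 in SC (median 3.42), 1.07 to 3.47 in Inter (2.81), 1.18 to 3.26 in IMF (2.36), 0.64 to 3.24 in Kid (1.74) and -0.05 to 3.15 in Omen (1.53). All 4 depots overlapped SC, and were lower in mean by 3.65-fold in Omen (-1.87, adjusted p = 1.53e-05), 3.54-fold in Kid (-1.83, adjusted p = 2.89e-06), 2.38-fold in IMF (-1.25, adjusted p = 4.26e-05) and 1.91-fold in Inter (-0.94, adjusted p = 0.00288). COL10A1, the chain of hypertrophic cartilage, differed in IMF by -1.06 without overlap (SE 0.10, adjusted p = 3.8e-09) and in Inter by -0.44 (adjusted p = 0.0209).

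COL18A1, the multiplexin whose end fragment is endostatin, was lower than in SC in all depots. It ran from 5.64 to 6.60 in SC, 4.81 to 5.61 in Inter, 4.47 to 5.51 in IMF, 4.04 to 5.71 in Omen and 4.13 to 5.32 in Kid, and only Omen overlapped SC. The differences were -1.47 in Kid (SE 0.12, adjusted p = 3.99e-09), -1.09 in Omen (adjusted p = 5.93e-06), -0.995 in IMF (adjusted p = 1.15e-06) and -0.90 in Inter (adjusted p = 3.2e-07). Of its 4 other probes 1 went the other way in IMF (0.98, adjusted p = 0.000108).

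COL15A1, the other multiplexin, found in the basement membrane zone of capillaries and muscle, had its highest mean in Omen. The level ran from 0.61 to 1.55 in Omen (median 1.13), 0.49 to 1.33 in Inter (0.88), -0.24 to 1.03 in Kid (0.49), -0.55 to 1.01 in IMF (0.52) and -0.42 to 1.09 in SC (0.24), with overlap throughout. It was higher than in SC in Omen (0.75, SE 0.17, adjusted p = 0.000696) and Inter (0.56, SE 0.16, adjusted p = 0.00656), and not called in Kid (0.09, adjusted p = 0.719) and IMF (0.04, adjusted p = 0.861). Its other probe gave -0.20 in Inter (adjusted p = 0.192).

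The type IV chains of the basement membrane split by gene pair. Among the fat depots COL4A1 and COL4A2, the chains of every basement membrane, which lie side by side in the genome, were lowest in IMF. COL4A3, COL4A5 and COL4A6, the chains of more restricted membranes, had their highest mean there. COL4A1 ran from 5.76 to 6.44 in SC (median 6.21), 5.54 to 6.37 in Omen (5.96), 5.62 to 6.32 in Inter (6.01), 5.10 to 6.40 in Kid (5.91) and 4.50 to 5.89 in IMF (5.08). IMF was 2.06-fold lower than SC, with overlap (-1.04, SE 0.13, adjusted p = 3.22e-07), and the differences in Kid (-0.27, adjusted p = 0.0461), Inter (-0.21, adjusted p = 0.0406) and Omen (-0.18, adjusted p = 0.125) were smaller, with 0.06 in Inter and 0.07 in Omen after quantile normalization.

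COL4A2 ran from 2.79 to 4.16 in SC (median 3.44) and from 1.42 to 2.32 in IMF (1.84), without overlap, and was 2.99-fold lower in IMF (-1.58, SE 0.12, adjusted p = 3.94e-11). With scan day as a block, which rests on 1 SC array, the difference was -0.91 (adjusted p = 0.0176). Kid differed by -0.58 (SE 0.17, adjusted p = 0.00896), Omen by -0.40 (SE 0.14, adjusted p = 0.0225, and 0.14 with scan day over all tissues) and Inter by -0.36 (SE 0.12, adjusted p = 0.0182). The endothelial markers, whose cells rest on this type IV network, were lower in IMF than SC for 4 of 7 genes and higher for 1 (median -0.52), with summed levels of 5.21 to 6.04 against 5.99 to 6.80. Macrophage markers were lower for 6 of 6 (median -2.07), as were the 6 adipocyte markers. Over the 12 IMF arrays COL4A2 correlated at 0.281 with the endothelial and at 0.722 with the adipocyte sum (0.22 and 0.883 without the 2 arrays farthest from the median of the sum), and COL4A1 at 0.481 and 0.636 (0.309 and 0.867). With the skeletal myofibre sum COL4A1 correlated at -0.847 and COL4A2 at -0.674 on the same arrays (-0.846 and -0.625 without the 2 farthest). The part of these cells was not tested.

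COL4A6 and COL4A5 are known from the basement membrane of smooth muscle and lie side by side on the X chromosome. COL4A6 ran from -0.91 to 1.80 in IMF (median -0.02), -3.03 to 1.08 in Omen (-1.75), -3.31 to -1.50 in Inter (-2.24), -3.75 to -0.16 in SC (-2.93) and -4.63 to -2.13 in Kid (-3.43). Apart from a Hereford SC array at -0.16, every SC array lay below all IMF arrays. That array stood apart in smooth muscle genes, with a summed level of 8.30 against 4.33 to 4.94 on the other 11, and was the highest SC array for COL4A5 (-0.89, others up to -2.09), COL13A1 (-1.45, others up to -2.48) and COL28A1 (-2.70, others up to -4.31) as well. It was 7.34-fold higher in IMF than in SC (2.88, SE 0.39, adjusted p = 6.63e-07) and 2.51-fold higher in Omen (1.33, SE 0.47, adjusted p = 0.0243). COL4A5 was 4.55-fold higher in IMF (2.19, SE 0.29, adjusted p = 5.3e-07) and 2.25-fold in Omen (1.17, SE 0.39, adjusted p = 0.0176), and it was lower in Kid (-0.72, SE 0.27, adjusted p = 0.036). Without that SC array the COL4A6 difference was 3.11 in IMF and 1.56 in Omen and passed in Inter (0.54, adjusted p = 0.0291), and the COL4A5 call in Kid was lost (-0.57, adjusted p = 0.062). Across the 60 fat arrays the pair correlated at r = 0.981 and within groups at 0.963, and COL4A1 with COL4A2 at 0.857 and 0.642. Between the 2 pairs, COL4A2 and COL4A6 correlated at -0.578 over all and -0.18 within groups.

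COL4A3, known from the filtration membrane of the kidney, was dim outside IMF and LD. It was above background on all 12 IMF and 11 Omen arrays and on 5 Inter, 4 SC and 3 Kid arrays. In LD on pasture it was above background on 23 of 24 arrays, at -5.195 to -3.311 (median -4.01). IMF differed from LD by 0.55 with no call, unlike the 4 other type IV chains. Its level ran from -6.62 to -0.93 in IMF (median -3.54) and from -8.47 to -3.32 in SC (-7.48), with overlap. The difference was 3.37 (SE 0.67, adjusted p = 0.000119), and 0.77 with normexp, so with most SC arrays not above background its size is not well set. In Omen it was 1.57 (SE 0.47, adjusted p = 0.00814). With scan day as a block, resting on 1 SC array, both calls were lost (-0.21 in IMF and -1.996 in Omen), and with normexp the Omen difference was -0.41. Despite the shared class, COL4A3 and COL4A6 correlated at -0.053 within groups.

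**Figure D3:**
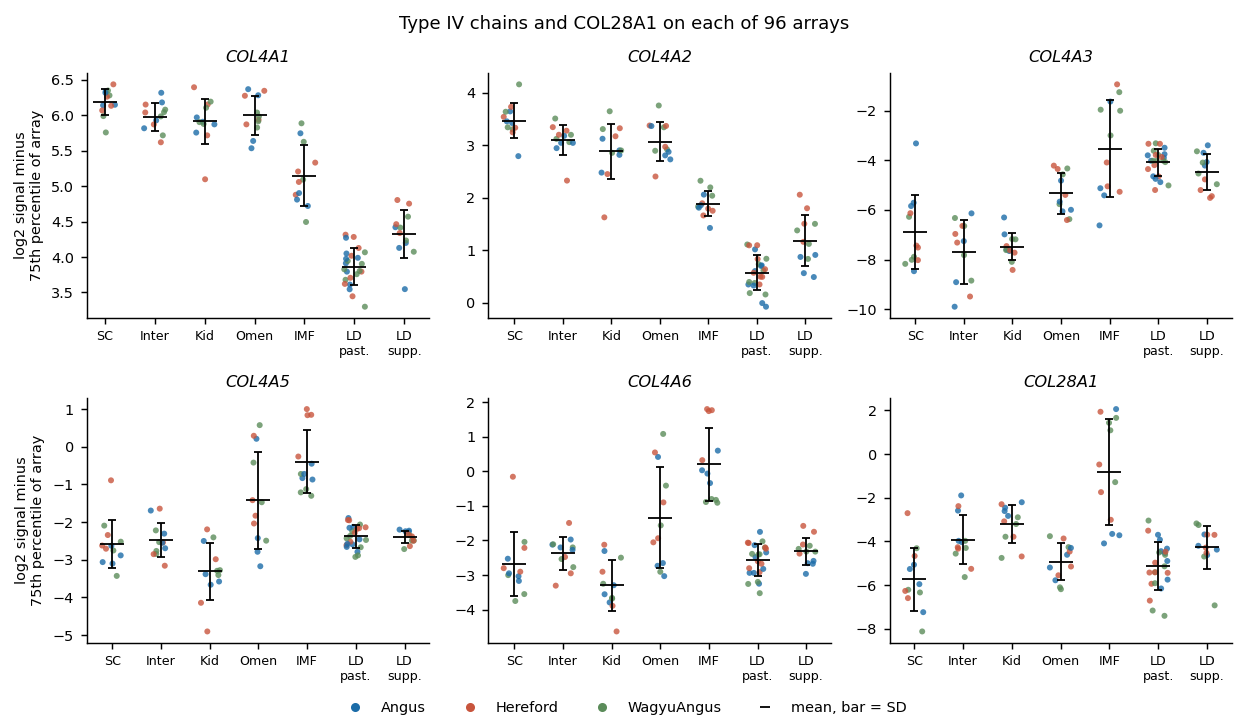
Levels (log2 signal minus the 75th percentile of the array, vertical axis) of the 5 type IV chains and COL28A1 on each array, by tissue (horizontal axis) and breed (colour), with the mean and SD of each tissue. COL4A1 and COL4A2 are lowest among fat depots in IMF, and COL4A3, COL4A5, COL4A6 and COL28A1 are highest there, COL28A1 with arrays from -4.09 to 2.06.

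COL28A1, a chain known from the sheath of peripheral nerve, showed the largest difference of the 26 genes in IMF. It ran from -4.09 to 2.06 in IMF (median -0.88), -4.75 to -2.20 in Kid (-2.99), -5.63 to -1.89 in Inter (-4.14), -6.18 to -3.76 in Omen (-4.88) and -8.12 to -2.70 in SC (-6.08), with 7 SC arrays above background. The ranges of IMF and SC overlapped. COL28A1 was 30.0-fold higher in IMF than in SC (4.91, SE 0.77, adjusted p = 5.43e-06), 5.70-fold higher in Kid (2.51, SE 0.46, adjusted p = 0.00012) and 3.47-fold higher in Inter (1.80, SE 0.50, adjusted p = 0.00469), while the Omen difference was 0.79 (adjusted p = 0.16, and 1.07 with adjusted p = 0.0284 without the SC array high in smooth muscle genes). These sizes depend on how low signals are treated, since normexp gave 2.56 for IMF, 0.47 for Kid, 0.03 for Inter and -0.42 for Omen. Within breeds the IMF difference was 3.53 in Angus (adjusted p = 0.0598), 4.23 in Hereford and 6.96 in WagyuAngus, and with scan day as a block it was 5.14 (adjusted p = 0.0713).

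Of the remaining low-signal chains, COL22A1, a chain of tissue junctions such as that of muscle and tendon, was lowest in SC. It ran from -7.16 to -2.65 in SC (median -4.37) and from -3.89 to -0.28 in IMF (-2.83), and was 3.53-fold higher in IMF (1.82, SE 0.45, adjusted p = 0.00116), 3.46-fold in Kid (1.79, adjusted p = 0.00362), 2.69-fold in Omen (1.43, adjusted p = 0.00922) and 2.52-fold in Inter (1.34, adjusted p = 0.0256). Tendon genes were higher in Inter for 5 of 6 (median 2.23) and muscle fibre genes for 5 of 12 (median 1.62), with summed levels up to 7.45 and 9.81, and over the 12 IMF arrays COL22A1 correlated with the tendon sum at 0.873 (0.89 without the 2 arrays farthest from its median). Their part was not tested. COL13A1, the transmembrane collagen of the neuromuscular junction and other cell contacts, ran from -3.71 to 0.47 in IMF and from -5.63 to -1.45 in SC. It was higher in IMF (1.40, SE 0.48, adjusted p = 0.0128) and lower in Kid (-0.99, adjusted p = 0.0215) and Omen (-0.97, adjusted p = 0.0238). COL26A1 was above background on 16 of 96 arrays and on none in SC and Inter, so its fitted call in Inter (means -8.31 and -7.40, adjusted p = 0.0142) is given without a fold.

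The chains that were high in IMF varied widely among its 12 arrays. Summed levels of 10 marker lists were set beside them, on the log2 scale. For the Schwann cell and smooth muscle sums, which left a gap between 2 sets of arrays, correlations are given within the larger set. Those of COL5A3, COL4A1, COL4A2, COL22A1 and COL11A1 with other sums are over all IMF arrays with a value. There the widest gap was 44.4% of the range in the adipocyte sum, 24.9% in the tendon sum and 26.1% in the muscle fibre sum. The sum of 8 Schwann cell genes, which wrap nerve fibres, left a gap between 7 arrays at 2.69 to 4.34 and 5 at 5.30 to 6.89 (1 Angus, 1 Hereford and 3 WagyuAngus). COL28A1 was -4.09 to -0.48 on the 7 and 1.09 to 2.06 on the 5, and COL4A3 -6.62 to -2.99 and -1.997 to -0.93. Among the 7 arrays alone the r with the Schwann sum was 0.89 for COL28A1 and 0.797 for COL4A3, and the rho 0.679 for both. By rho other lists were as strong, with the macrophage sum at -0.75 for COL28A1 and the tendon sum at -0.679 for COL4A3. The other 9 lists gave an r of -0.772 to 0.436 for COL28A1 and -0.591 to 0.253 for COL4A3 on these arrays, with the cartilage sum at -0.267 and -0.45. The cartilage sum also parted the same 2 sets, with -2.99 to -2.51 on the 7 and -1.76 to -1.15 on the 5, and was the only one of these 9 that did not overlap between them. Both lists therefore move with the difference between the sets, and their part in it was not tested. In Omen the correlations with the Schwann sum were -0.098 and -0.332 across 12 arrays. There S100B made up 97.6% of the sum, against 32.8% in IMF, so the Omen values mainly follow that gene and are not comparable with those in IMF.

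Against SC, 5 of the 7 Schwann cell genes reported singly were higher in IMF, with the myelin genes PMP2 (difference 6.30) and MBP (4.67) among them, and S100B, which adipocytes also express, was lower (-1.74). S100B made up 96.8% of the sum in SC and 32.8% in IMF, so the sums of both depots weigh different genes. Each of the 7 genes was above background on some array of every tissue.

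The sum of 7 smooth muscle genes, led by ACTA2, left a smaller gap between 8 IMF arrays at 6.497 to 8.01 and 4 at 8.69 to 9.84 (1 Angus and 3 Hereford). COL4A6 was -0.91 to 0.32 on the 8 and 0.60 to 1.80 on the 4, COL13A1 -3.71 to -2.25 and -0.94 to 0.47, and COL4A5 -1.30 to -0.26 and -0.45 to 1.001. Among the 8 arrays the r with the sum was 0.874 for COL4A6, 0.721 for COL13A1 and 0.663 for COL4A5, and its rho 0.905, 0.429 and 0.571. The other 9 lists gave -0.605 to 0.749 for COL4A6, -0.455 to 0.354 for COL13A1 and -0.782 to 0.432 for COL4A5, whose correlations with the adipocyte (-0.782) and macrophage (-0.704) sums were the stronger ones. COL11A1 correlated at 0.8 with the muscle fibre sum over 11 IMF arrays (0.858 without the 2 farthest). All 7 smooth muscle genes were higher in IMF than in SC (median 2.61) and none was called in Omen, where COL4A5 and COL4A6 were also higher than in SC and correlated at 0.172 and 0.165 with the smooth muscle sum. Their r in Omen was 0.75 and 0.776 with the sum of 5 mesothelial genes, 0.75 and 0.73 with that of tendon genes and 0.592 and 0.6 with that of cartilage genes, so that no single list stood apart there. Muscle fibre genes were higher in IMF for 12 of 12 (median 10.6) and tendon genes for 6 of 6 (median 4.13). The part of nerve, vessel, tendon or muscle tissue in the dissected samples in these collagen differences was not tested.

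**Figure D4:**
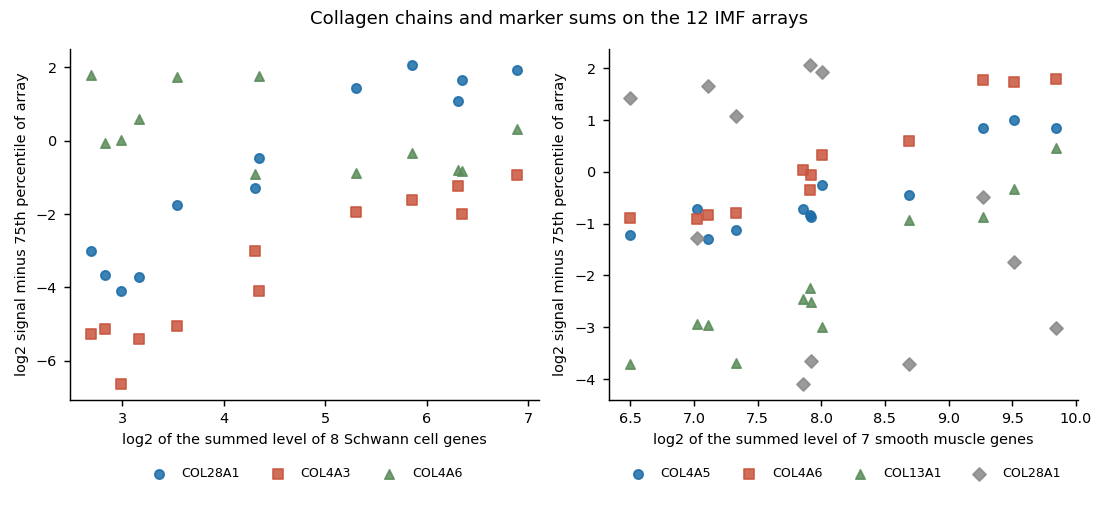
Levels of collagen chains on the 12 IMF arrays (log2 signal minus the 75th percentile of the array, vertical axes) against the log2 summed level of 8 Schwann cell genes (left) and of 7 smooth muscle genes (right), 1 point per array and gene. COL28A1 and COL4A3 rise with the left sum, COL4A5, COL4A6 and COL13A1 with the right, and COL28A1 lies from -4.09 to 2.06 across the right without following it.

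Because IMF lies inside muscle, it was also compared with the 24 LD arrays on pasture. In IMF 19 collagen chain genes were higher and 1 lower than in LD (all probes: 75.3% called, 36% higher and 39.3% lower), with a median difference of 1.30 against -0.04 over all probes, and 8 were higher without overlap (8.04% of probes). The IMF mean lay between those of SC and LD for 18 genes and above both for 8, and below both for none. The genes called higher in IMF than in both were COL28A1, COL22A1, COL4A5, COL4A6 and COL13A1.

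COL28A1 was 19.6-fold higher in IMF than in LD (4.30, SE 0.56, adjusted p = 1.21e-08), and LD ran from -7.40 to -3.04 (median -5.05), with 16 of 24 arrays above background and a difference of 2.35 with normexp. COL22A1 was higher too (3.29, SE 0.46, adjusted p = 6.49e-08), but it was above background on only 8 of 24 LD arrays and the difference was 0.87 with normexp, so its size is not well set. COL18A1 followed with 7.34-fold (2.87, SE 0.12, adjusted p = 1.23e-19), although another of its probes gave -1.66 (adjusted p = 4.35e-08). COL4A6 was 6.82-fold higher (2.77, SE 0.24, adjusted p = 1.27e-12), with LD from -3.53 to -1.75.

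The chains of types I, III and V and 2 of the 4 of type VI were higher in IMF than in LD as well, COL3A1 without overlap (LD 3.79 to 4.74, difference 1.95, SE 0.14, adjusted p = 5.17e-15). COL1A1 was 2.87-fold higher (LD 1.84 to 4.36, median 3.15, difference 1.52, SE 0.25, adjusted p = 1.1e-06) and COL1A2 3.78-fold (LD 2.62 to 4.58, median 3.63, difference 1.92, SE 0.21, adjusted p = 2.68e-10). The basement membrane pair was also higher without overlap, COL4A1 by 1.28 (LD 3.299 to 4.32, SE 0.11, adjusted p = 1.63e-12) and COL4A2 by 1.32 (LD -0.08 to 1.11, SE 0.11, adjusted p = 2.03e-13). COL6A1 was higher by 1.04 (LD 4.94 to 5.57, SE 0.11, adjusted p = 9.78e-11), with another probe at -0.29 (adjusted p = 0.214), while COL6A3 differed by 0.19 (LD 0.57 to 2.31, SE 0.15, adjusted p = 0.252) and COL6A6 by 0.22 (SE 0.26, adjusted p = 0.438). COL15A1 was higher by 0.38 (adjusted p = 0.0363) and its other probe lower by -0.33 (adjusted p = 0.000694).

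COL11A1 was the 1 chain lower in IMF than in LD (LD -3.74 to -2.61, difference -0.82, SE 0.14, adjusted p = 1.91e-06), but another of its probes, above background on 46 of 96 arrays, gave 1.89 (adjusted p = 0.000743). COL2A1 differed by -0.22 (SE 0.17, adjusted p = 0.233), but its 2 other probes gave 1.65 (adjusted p = 6.86e-10) and 3.23 (adjusted p = 6.44e-06). With 12 IMF and 8 LD arrays of the same scan day, 21 genes passed, 20 of them higher. COL1A1 then differed by 2.24 and COL28A1 by 4.86. Those 8 LD arrays were of Angus and WagyuAngus without Hereford, while the 12 IMF arrays held all 3 breeds.

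Correlations across the 60 fat arrays were high for some neighbouring or partner chains and low for others. Besides type I (0.976) and COL4A5 with COL4A6 (0.981), COL5A2 and COL3A1 correlated at r = 0.909 and at 0.926 within groups, COL1A1 and COL3A1 at 0.882 and 0.751, and COL6A1 with COL6A3 at 0.758 and 0.727. Lower values came from COL6A3 with COL6A6, at 0.689 over all and 0.438 within groups, and from COL1A1 with COL5A1, at 0.481 and 0.171. COL4A3 correlated with COL4A5 at 0.539 over all and at -0.046 within groups. COL1A1 with COL6A1 reached 0.84 and 0.607. COL1A1 and COL4A1 stood at 0.182 and 0.013, on the same arrays. COL15A1 and COL18A1 correlated at -0.074 over all and 0.324 within groups. In the RefSeq gene order 7 pairs of collagen chain genes are neighbours and both members were measured for 4 of them. The correlations share the arrays, their depth and their scaling, and are given as description.

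Between breeds the fat depots differed little. Over the 60 fat arrays 2 of 26 genes were called, COL18A1 and COL15A1, as were 3.2% of all probes, and samples of different depots that share a steer make these p-values too small. COL18A1 was higher in WagyuAngus than in Angus (0.43, SE 0.10, adjusted p = 0.0168) and its mean was higher in all 5 depots, from 6.27 against 5.85 in SC to 4.82 against 4.37 in Kid. Hereford exceeded Angus by 0.38 (SE 0.10, adjusted p = 0.0517). Of its 4 other probes 3 gave the same direction. COL15A1 was lower in WagyuAngus than in Hereford (-0.45, SE 0.11, adjusted p = 0.0126), in mean in 5 of 5 depots, with -0.10 against 0.92 in SC, where the 4 WagyuAngus arrays (-0.42 to 0.06) lay below the 4 Hereford arrays (0.79 to 1.09). Its other probe gave -0.23 (adjusted p = 0.147). Within each depot none of the 26 genes was called by limma among breeds with 4 arrays each.

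No collagen chain gene showed a depot difference that depended on breed (limma, 0 of 26, and 0% of all probes at the adjusted threshold). At an unadjusted p under 0.05 7.38% of all probes passed. The depot differences of type I were seen in each breed, with COL1A1 in Kid at -2.40 in Angus, -2.50 in WagyuAngus and -2.68 in Hereford, and in IMF at -1.53, -1.78 and -1.44.

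In LD muscle, steers given supplementary feed after weaning were compared with those raised on pasture, over 12 and 24 arrays with breed in the fit. With supplement 7 of the 26 collagen chain genes were higher and none lower (all probes: 11.2% called, 5.65% higher and 5.6% lower), with a median difference of 0.27 against 0.01 over all probes. The 7 were the type I chains COL1A1 and COL1A2, the type V chain COL5A2, the basement membrane chains COL4A1 and COL4A2, COL6A3 and COL15A1. For each of them the groups overlapped, as they did for every probe tested (0% without overlap).

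COL1A1 ran from 1.84 to 4.36 on pasture (median 3.15) and from 2.99 to 4.89 with supplement (3.98), 1.85-fold higher (0.88, SE 0.21, adjusted p = 0.00673), with 0.94 in Angus, 0.52 in Hereford and 1.19 in WagyuAngus. Of its other probes 1 gave -0.09 (adjusted p = 0.715). COL1A2 ran from 2.62 to 4.58 and from 3.56 to 5.35 (0.83, SE 0.18, adjusted p = 0.00374). COL4A2 ran from -0.08 to 1.11 (median 0.59) and from 0.49 to 2.06 (1.14), and was 1.53-fold higher (0.62, SE 0.12, adjusted p = 0.0013), COL4A1 from 3.299 to 4.32 and from 3.55 to 4.81 (0.47, SE 0.10, adjusted p = 0.00278). The smaller differences were 0.46 for COL6A3 (adjusted p = 0.0109) and 0.32 for COL5A2 (adjusted p = 0.0321). COL3A1 differed by 0.29 (SE 0.11, adjusted p = 0.0807), COL6A1 by 0.14 (SE 0.07, adjusted p = 0.242) and COL28A1 by 0.86 (SE 0.37, adjusted p = 0.128).

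COL15A1 rose with supplement by 0.49 (SE 0.14, adjusted p = 0.0211), from -0.80 to 0.87 on pasture (median -0.05) to 0.08 to 1.02 with supplement (0.50), and its other probe gave -0.05 (adjusted p = 0.77). The difference depended on breed (limma interaction, adjusted p = 0.041), at 0.82 in Angus and 0.76 in WagyuAngus and -0.12 in Hereford. Pasture arrays of Hereford lay at 0.04 to 0.87. Those of WagyuAngus lay at 0.045 to 0.581 on the scan day of its supplement arrays, and at -0.801 to -0.539 on another day. The 0.76 in WagyuAngus pools both days. COL10A1 also depended on breed (adjusted p = 0.00844). Its mean was -3.33 with supplement against -3.65 on pasture in Angus, -3.65 against -3.26 in Hereford and -3.87 against -3.21 in WagyuAngus. These were 2 of 26 genes, as were 16.2% of all probes. The 4 supplement arrays of each breed lay on 1 slide, so that this dependence and the slide cannot be told apart, and with slide as a random block the adjusted p was 1 for COL15A1 and 0.916 for COL10A1. With each of the 36 LD arrays left out in turn COL10A1 passed in all 36 fits, and COL15A1 in 22 (adjusted p from 0.02 to 0.104).

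The diet calls rest on few slides and days. Supplement arrays lay on slides of their own, and with slide as a random block none of the 26 genes passed in limma (COL1A1 adjusted p = 0.506). With scan day as a block COL4A1 (0.44, adjusted p = 0.0133) and COL4A2 (0.46, adjusted p = 0.0237) passed, and COL1A1 stood at 0.49 (adjusted p = 0.135). Within the first day 4 genes passed and within the second 1, with COL1A1 at 0.39 and 0.84. Adipocyte markers were lower with supplement for 4 of 6 genes (median -1.54), with summed levels of 2.28 to 6.57 on pasture and 2.20 to 3.97 with supplement, endothelial markers were higher for 5 of 7 (median 0.43), and fibroblast markers for 0 of 6. Their part and that of the slaughter group, which the labels do not give, were not tested.

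**Figure D5:**
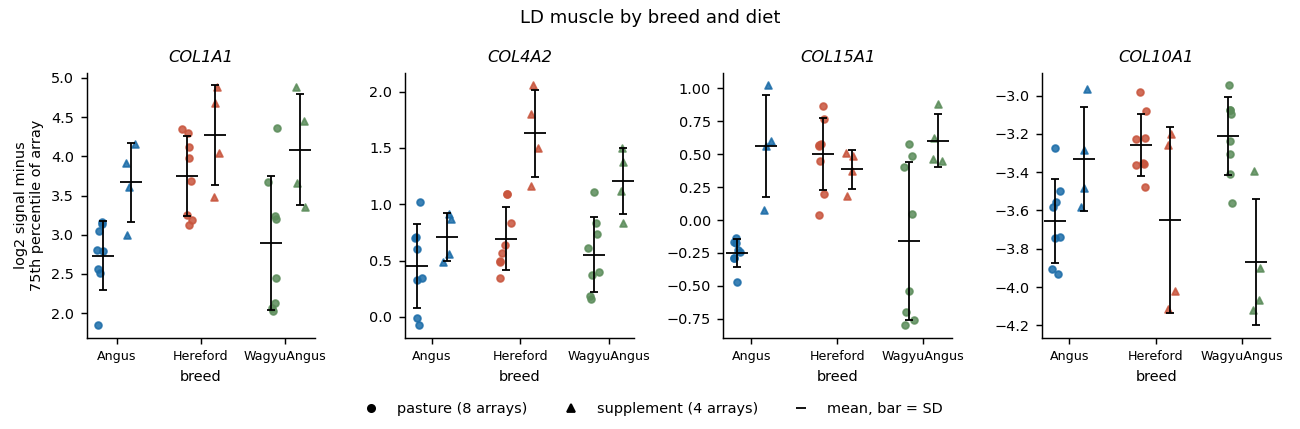
Levels (log2 signal minus the 75th percentile of the array, vertical axes) of COL1A1, COL4A2, COL15A1 and COL10A1 on LD arrays by breed (horizontal axes), circles for pasture and triangles for supplement, with mean and SD. COL1A1 and COL4A2 means are higher with supplement in all 3 breeds, COL15A1 in Angus and WagyuAngus only, and COL10A1 is higher in Angus and lower in the others.

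Among breeds in LD on pasture 4 of 26 genes were called (14.7% of all probes). COL1A1 ran from 1.84 to 3.16 in Angus (median 2.80), from 3.12 to 4.34 in Hereford (3.83) and from 2.03 to 4.36 in WagyuAngus (2.83), and was higher in Hereford than in Angus by 1.01 (SE 0.30, adjusted p = 0.0373). Of its 4 other probes 2 gave 1.46 and 1.29, and 2 gave -0.34 and -0.67, the last with adjusted p = 0.0249, so the direction depends on the probe. COL15A1 was higher in Hereford than in Angus (0.75, SE 0.19, adjusted p = 0.0161), where its other probe gave 0.05 (adjusted p = 0.826). COL10A1 was lower in Angus than in both other breeds (by 0.40 against Hereford, adjusted p = 0.0195, and 0.44 against WagyuAngus, adjusted p = 0.0352), and COL8A1 was lower in WagyuAngus than in Angus (-0.57, SE 0.14, adjusted p = 0.038). With slide as a random block none of the 4 passed. Among the same breeds 4 of 6 adipocyte markers and 3 of 7 endothelial markers were called. The summed adipocyte level ran from 4.43 to 6.30 in Angus, from 2.28 to 4.46 in Hereford and from 2.49 to 6.57 in WagyuAngus, and the endothelial one from 4.87 to 5.26, from 4.96 to 5.47 and from 4.89 to 5.13. Their part in the breed differences was not tested.

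Of the enzymes and partners that make collagen chains into fibres, 39 genes were measured. In IMF 9 were higher and 21 lower than in SC, in Inter 9 and 13, in Kid 6 and 19 and in Omen 5 and 18. These were 76.9%, 56.4%, 64.1% and 59.0% of the 39, where 64.2%, 48.8%, 41.7% and 45.7% of all probes were called. Against LD 30 were higher in IMF and 2 lower (82.1%, all probes 75.3%), and with supplement in LD 6 were higher and 2 lower (20.5%, all probes 11.2%). The median difference of the 39 was -0.42 for IMF, -0.31 for Kid, -0.26 for Omen and -0.14 for Inter, and it was 1.12 against LD and 0.12 with supplement.

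The lysyl oxidases, which cross-link collagen and elastin, were lower than in SC for 4 of 5 genes in each of the 4 depots. Of all probes, the share called lower than in SC was 22.2% (Kid), 25.2% (Omen), 27.2% (Inter) and 33% (IMF). Against LD 5 of 5 lysyl oxidases were higher in IMF, as were 36% of all probes. Among the fat depots LOX was lowest in Kid, at a mean of 1.003 against 3.201 in SC, without overlap (-2.20, SE 0.23, adjusted p = 1.1e-07), and was 2.45 higher in IMF than in LD (SE 0.19, adjusted p = 8.47e-14). Of 16 hydroxylation and folding genes 9 were lower in IMF than in SC and 3 higher (all probes: 33% and 31.2%). PLOD2, the lysyl hydroxylase of collagen telopeptides, was higher in Inter by 1.87 (SE 0.26, adjusted p = 3.86e-06) and in Omen by 1.62 (SE 0.24, adjusted p = 8.47e-06). SERPINH1, the collagen chaperone HSP47, was lower in Inter (-0.81, SE 0.12, adjusted p = 1.11e-05).

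Of 5 genes of propeptide cleavage 3 were lower in IMF than in SC and none higher (all probes: 64.2% called, 33% lower). ADAMTS2, which removes the amino end of type I procollagen, had a difference of -1.46 in IMF (SE 0.19, adjusted p = 3.83e-07) and of -1.23 in Omen (SE 0.15, adjusted p = 4.67e-07), both without overlap. Of the proteoglycans that coat fibrils 5 of 8 were higher in IMF and 2 lower (all probes: 31.2% and 33%), with ASPN (asporin) at 1.69 (SE 0.29, adjusted p = 1.88e-05). In Kid 2 of the 8 were higher and 4 lower (all probes: 19.4% and 22.2%), with KERA at -2.43 (adjusted p = 2.23e-06) and FMOD at -1.99 (adjusted p = 1.69e-08). Of the 5 collagen receptors 3 were lower in IMF and 1 higher (median -0.65, all probes 33% lower and 31.2% higher). DDR1 was lower in IMF without overlap (-1.77, SE 0.17, adjusted p = 4.88e-09) and ITGA2 higher without overlap (1.74, SE 0.19, adjusted p = 3.56e-08). With supplement in LD, LOXL2 was higher by 0.53 (SE 0.10, adjusted p = 0.00103) and PCOLCE, an enhancer of procollagen cleavage, by 0.37 (SE 0.09, adjusted p = 0.00565), and P3H2 was lower (-0.55, SE 0.10, adjusted p = 0.000985).

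Most genes with several probes gave the same direction from each. Among called differences, other probes of the gene had the same sign in 38 of 39 cases in IMF against SC, 35 of 37 in Inter, 36 of 36 in Kid, 36 of 36 in Omen, 34 of 38 in IMF against LD and 13 of 15 for diet. Probes of a gene share its transcripts and are not replicates.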

How the data were processed

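Agilent 1-colour bovine arrays were analysed for 96 samples, grouped by GEO labels into tissue, breed and diet. The authors deposited scanner intensity values with the background subtracted, of which the processed signal was used, and a set of log2 values (median spot signal minus local background, at least 1, no scaling between arrays), which served as an alternative and to fix the probes tested. Outlier spots were dropped, spots averaged, log2 taken and the 75th percentile of each array over 43653 probes subtracted. No filter on dim probes was applied. Signal over background, not depth, limits the precision.

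Probes were named from RefSeq accessions (19903) and the paper's probe tables (4440), together 62.7% of those tested. The coordinates of the array header and of the annotation are from different builds, so none are given. Groups were compared with limma 3.58.1 in R 4.3.3 (data.table, version 1.17.8) on the 2 groups alone, over 60 fat arrays with depot and breed, and in LD with breed, with Benjamini-Hochberg adjustment. Descriptions and figures were made in Python (3.11.15) with scipy 1.17.1, matplotlib 3.10.9, pandas 2.3.3 and numpy 2.4.6. The scripts were tested on simulated data. Any of the 26 genes could be named. Full values go to 10 listed genes (COL1A1, COL1A2, COL3A1, COL4A1, COL4A2, COL6A1, COL6A3, COL15A1, COL2A1 and COL28A1) and to the 4 largest called differences in each direction, and of the 39 partner genes to the 3 largest. The members and lists were chosen with earlier results of these data known. Of the 8 genes in the summed Schwann cell level, 1 is not reported singly here. Alternatives were quantile normalization, mean centring, normexp (offset 50, on median spot signals because mean signals are not among the values used), the deposited log2 values, all probes, a filter on dim probes, the mean of all probes of a gene, the methods' t-test, breed as covariate, and a block for slide, for scan day or for replicate number, besides single breeds and, chosen after seeing the data, single scan days, blocks for the diet by breed interaction single arrays left out of both interactions, and 1 SC array high in smooth muscle genes left out.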

Additional observations from a re-analysis of the deposited data

Results flagged for a closer look

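The mean of each collagen class was examined in each of 168 groups of 4 to 8 arrays for a lone high or low array, each gene being centred on its mean over the 96 arrays, and 13 stood apart, where chance gives about 5%. In IMF Angus 1 array had COL26A1 and COL28A1 at 2.87 (others 0.16 to 0.44), and the same array had the multiplexins at 0.70 (others 0.02 to 0.06), while a different IMF Angus array had the transmembrane chain COL13A1 at 2.91 (others 1.34 to 1.59). In LD supplement Angus COL26A1 and COL28A1 reached 1.57 (others -0.44 to -0.22) and the short-chain class fell to -1.38 (others -1.10 to -1.07). COL22A1 was at -0.38 on an LD pasture WagyuAngus array (others -2.91 to -1.76) and at 0.41 on an Omen Angus array (others 1.18 to 1.23). Inter Hereford held an array with basement membrane chains at 0.35 (others -0.52 to -0.38) and beaded filament chains at 0.97 (others 0.25 to 0.34). The multiplexins were at 0.64 in Inter WagyuAngus (others 0.78 to 0.80) and at -0.68 in LD supplement Hereford (others -0.97 to -0.93). The short-chain class was at 1.48 in Kid WagyuAngus (others 0.48 to 0.53) and at 1.26 in SC WagyuAngus (others 1.44 to 1.45).

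The effect of supplement in LD differed between breeds for COL10A1 (limma interaction, adjusted p = 0.00844) and COL15A1 (adjusted p = 0.041), with the values given for each breed above. With slide as a random block neither passed (adjusted p = 0.916 and 1), and breed, diet and slide cannot be told apart for the supplement arrays.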

How the results depend on the processing

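Of the recomputed counts of collagen chain genes 217 stayed within 1.5 times and 39 did not, and of the recomputed differences of single genes 1332 kept direction and call, 220 lost the call, 14 gained it and 33 turned. The cause of each change was not tested. Fewer arrays per fit apply within breeds, depots and scan days. The limma counts below are of genes called, by comparison, without the share of all probes under the same setting.

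With scan day as a block 8 collagen chain genes (3 higher) were called in IMF against SC and 0 in Omen, both resting on 1 SC array, 2 for diet and 2 among LD breeds. Inter against SC could not be fitted with its own scan day block, and gave 12 (3 higher) with scan day over all tissues. With slide as a random block 11 (2 higher) were called in Inter, 0 for diet and 0 among LD breeds. Within Angus, Hereford and WagyuAngus Inter gave 5, 7 and 5, Kid in Hereford 7 and in WagyuAngus 10, Omen in Angus 6 and in Hereford 7, and diet 1, 2 and 2. Within scan days diet gave 4 and 1. Among breeds in fat mean centring gave 1 and each depot alone 0, and among LD breeds normexp gave 1.

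Of the 39 partner genes, scan day as a block left 11 in IMF, 3 in Omen and 3 for diet. Within Angus, Hereford and WagyuAngus Inter gave 4, 6 and 7 and Kid 14, 5 and 7. IMF gave 18 in Hereford and 17 in WagyuAngus, Omen 2 in Angus and 3 in Hereford, and diet 1 in Angus and 1 in WagyuAngus. Kid within 1 scan day gave 16, diet within the second day 3 and with normexp 4. Slide as a random block gave 0 for diet and 0 among LD breeds. Breeds in fat gave 0 with quantile normalization, mean centring, normexp, the deposited log2 values, all probes, the mean of probes, the slide block, the replicate block, without the SC array high in smooth muscle genes and within each depot.

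Normexp changed the class mean difference to -0.79 (fibrillar, IMF against SC) and -0.86 (Omen), 0.87 for COL22A1 (IMF against LD), 0.46 and 0.18 for the basement membrane (IMF and Omen), and for COL26A1 with COL28A1 to 1.10 (IMF), -0.43 (Inter), -0.078 (Kid), -0.49 (Omen) and 0.87 (IMF against LD). The mean of all probes gave 0.93 for the multiplexins in IMF against LD.

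Single genes turned as follows. With normexp COL11A2 gave -0.047 in IMF and -0.23 in Inter, COL2A1 -0.15 in IMF, -0.28 in Kid and -0.34 in Omen, COL28A1 -0.42 and COL4A3 -0.41 in Omen. With the mean of probes COL2A1 gave -0.31 in Kid, -0.70 in Omen, 1.52 against LD and 0.32 for diet, and COL11A1 0.53 against LD. With scan day as a block COL2A1 gave -0.42 in IMF, -0.30 in Kid and -0.55 in Omen, COL4A3 -0.21 in IMF and -1.996 in Omen, and COL4A2 0.33 in Omen. Over all tissues COL2A1 gave -0.10 and COL4A2 0.14 in Omen. Quantile normalization gave COL4A1 0.058 in Inter and 0.073 in Omen, the deposited log2 values COL26A1 0.072 in Inter and mean centring COL15A1 -0.044 in IMF. Within breeds COL15A1 gave -0.057 (Angus) and -0.13 (Hereford) in IMF and, in Hereford, -0.58 in Kid and -0.12 for diet. COL2A1 gave -0.27 in IMF and 0.091 for diet in Hereford and -0.064 in Kid in Angus. Within 1 scan day COL2A1 gave -0.26 in Kid and COL6A1 -0.042 for diet.

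The median r between deviations of same-numbered samples ran from 0.00327 (IMF against SC, 3 pairs, 1 over 0.1) to 0.0805 (Kid against SC, 5 pairs, 2 over 0.1), and numbers repeat within groups, so they were not taken to pair the samples. The replicate block gave 3 for the diet by breed interaction in LD against 2 without it, and left the other counts of collagen chain genes as they were, at 23 in IMF, 19 in Inter, 17 in Kid, 19 in Omen, 20 against LD, 26 among depots, 2 and 0 for breed and its interaction in fat, 7 for diet and 4 among LD breeds. The methods' t-test called 23, 18, 17, 19 and 20 genes in the 5 comparisons of tissues after Benjamini-Hochberg. Dim chains such as COL26A1, COL11A2, COL4A3 and COL22A1 are limited by signal over background. Arrays were left out in turn where the groups held 4 arrays, an alternative chosen after seeing the data. The depot by breed interaction gave 0 in each of 60 fits, and the diet by breed interaction 1 to 3 in 36 fits, where it gave 0 with slide as a random block and 2 with scan day as a block. COL15A1 lost its interaction without any 1 of 3 Angus, 3 Hereford and 2 WagyuAngus supplement arrays or of 5 Hereford and 1 Angus pasture arrays. Within-breed fits were not repeated with arrays left out.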
